A study of Mus musculus with 9 samples.

Results

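The genes described here are 48 mouse genes listed as primary cilium genes. They were measured in a small intestinal epithelial cell line after exposure to bacterial lipopolysaccharide (LPS). Besides genes of ciliary transport and structure, the list holds the kinesin Kif12, the axonemal or microtubule genes Cfap69 and Map9, and the transcription factor Rfx3. Each gene was read from the probe set annotated to it alone with the highest mean over 9 arrays, and it was tested where that probe set reached log2 4 on at least 3 of the 9 arrays. Of the 48 listed genes, 44 had such a probe set and 40 reached the minimum, out of 9431 of 18193 genes on the array that did. No probe set was annotated to Arl6, Arl13b, Rpgrip1l or Pkd2 alone, while Pkd1, Bbs12, Mks1 and Tmem67 stayed below the minimum.

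The primary cilium is a single antenna of microtubules that grows from the mother centriole of a cell that is not dividing and is taken down again before division. Intraflagellar transport (IFT) carries its building blocks: the IFT-B complex works with kinesin-2 on the way to the tip, and the IFT-A complex with cytoplasmic dynein-2 on the way back. The BBSome ferries membrane receptors, the transition zone gates the base, and the cilium hosts Hedgehog signalling and the polycystins.

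The cells were m-ICcl2, derived from fetal small intestine and carrying SV40 large T antigen on a C57BL/6 background in every group; the labels do not name the promoter of that transgene. Tolerant cells received 100 ng/mL LPS for 6 h and then LPS-free medium for 90 h. The 6 h LPS cells received the same dose for 6 h and were then collected. Unstimulated cells received no LPS. Each condition had 3 arrays, labelled as biological replicates 1 to 3 of 1 cell line. The labels give no culture time for unstimulated cells, so LPS and the longer culture of tolerant cells cannot be told apart.

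Values are log2 of an intensity on which low values crowd together: over all probe sets and arrays the lowest value was 1.15 and the median 3.03. A called gene had a Benjamini-Hochberg adjusted p below 0.05 over all 9431 tested genes in limma's moderated test. Array medians over tested genes lay between 7.62 and 7.84. Replicate 1 of all 3 conditions stood apart from replicates 2 and 3 on a principal component with 30.9% of the variance, and its actin probe sets differed less between the 3' and 5' ends (0.40 to 0.72 in log2, against 1.02 to 1.38 in the others). Results were therefore also fitted with a block for the replicate number (the replicate block) and from replicates 2 and 3 alone. Of 11 epithelial markers, Krt8, Krt18, Cldn4, Vil1 and Epcam reached the minimum, Epcam on tolerant arrays only, while Cdh1, Krt19, Cldn3, Cldn7, Cdx1 and Cdx2 did not. None of 8 fibroblast markers, 5 tuft cell markers or the 21 genes on the motile cilia list did so. Cfap69 of motile flagella and Foxj1, the regulator of motile cilia, stand on other lists and did. Of 7 leukocyte markers, Cd68 and Csf1r did, but not Ptprc, the pan-leukocyte marker.

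Rfx3, a transcription factor that switches on cilium genes through the X-box of their promoters, is itself among the listed genes, so promoters were searched on both strands for an X-box-type pattern, which is GTNNCC followed after 3 bases of any kind by GNAAC. The windows, from RefSeq on GRCm38.p6, run from 250 bases before to 50 bases after each annotated start. The pattern stood in 714 of 32851 windows of all genes (2.17%), in 10 of 44 windows of the listed cilium genes (22.7%), and in 17 of 137 windows of other cilium genes (12.4%). By gene it was present for Bbs1, Bbs4, Bbs7, Ift22, Ift57, Map9, Mks1, Tctn1 and Tctn2, 9 of the 42 listed genes with a window. Ift80, Ift81, Ttc30b, Ift122, Dync2li1 and Tmem67 had no window. The 5 listed genes at the level minimum whose match lies wholly before the start are printed 5′ to 3′ on the gene's strand, with the match in capitals and 20 bases on either side, because they show the one sequence feature searched for across the list. Bbs7 lies on the minus strand at chr3:36613477-36613530, Ift22 on the plus strand at chr5:136908067-136908120 and Tctn2 on the plus strand at chr5:124598667-124598720. Ift57 lies on the plus strand at chr16:49699187-49699240 and Map9 on the plus strand at chr3:82357931-82357984. In Ift22, Ift57 and Tctn2 the pattern reads on the opposite strand.
Bbs7: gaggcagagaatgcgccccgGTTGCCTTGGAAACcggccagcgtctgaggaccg
Ift22: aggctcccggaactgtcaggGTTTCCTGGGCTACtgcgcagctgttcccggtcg
Tctn2: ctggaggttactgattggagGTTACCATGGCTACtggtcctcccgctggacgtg
Ift57: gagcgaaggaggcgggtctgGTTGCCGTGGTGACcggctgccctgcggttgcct
Map9: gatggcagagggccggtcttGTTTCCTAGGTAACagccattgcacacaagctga

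Tolerant cells carried less of many cilium transcripts than unstimulated cells. Of the 40 tested genes, 19 fell (47.5%, against 12.2% of all tested genes) and none rose (14.0% of all tested genes rose). The median difference was -0.58, against -0.07 over all tested genes, 31 of 40 differences were below 0 (against 54.7% over all tested genes), and 11 genes fell by at least 2-fold (against 6.11%). Without Kif12 and Ttc30b, whose fall was known from earlier results, 17 of 38 fell (44.7%). The whole list was chosen with earlier results of these data known. Its shares in both comparisons of tolerant cells therefore describe the list and are not an independent test. With 0 called higher, Kif3a and Ift80 were higher at an unadjusted p below 0.05 (0.0165 and 0.0395), beside 19.7% of all tested genes. With the replicate block 24 of 40 fell and Kif3a and Ofd1 rose, beside 25.9% of all tested genes called lower and 22.7% higher. Replicates 2 and 3 alone gave 18 lower, beside 19.7% of all tested genes, and 3 higher, Bbs5, Ofd1 and Kif3a, beside 18.5%. The count of 19 fell to 8 without tolerant replicate 2 (6.87% of all tested genes) and to 12 without tolerant replicate 3 (7.39%). In bulk RNA of this kind, fewer ciliated cells and less RNA per cell cannot be told apart.

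**Figure D1:**
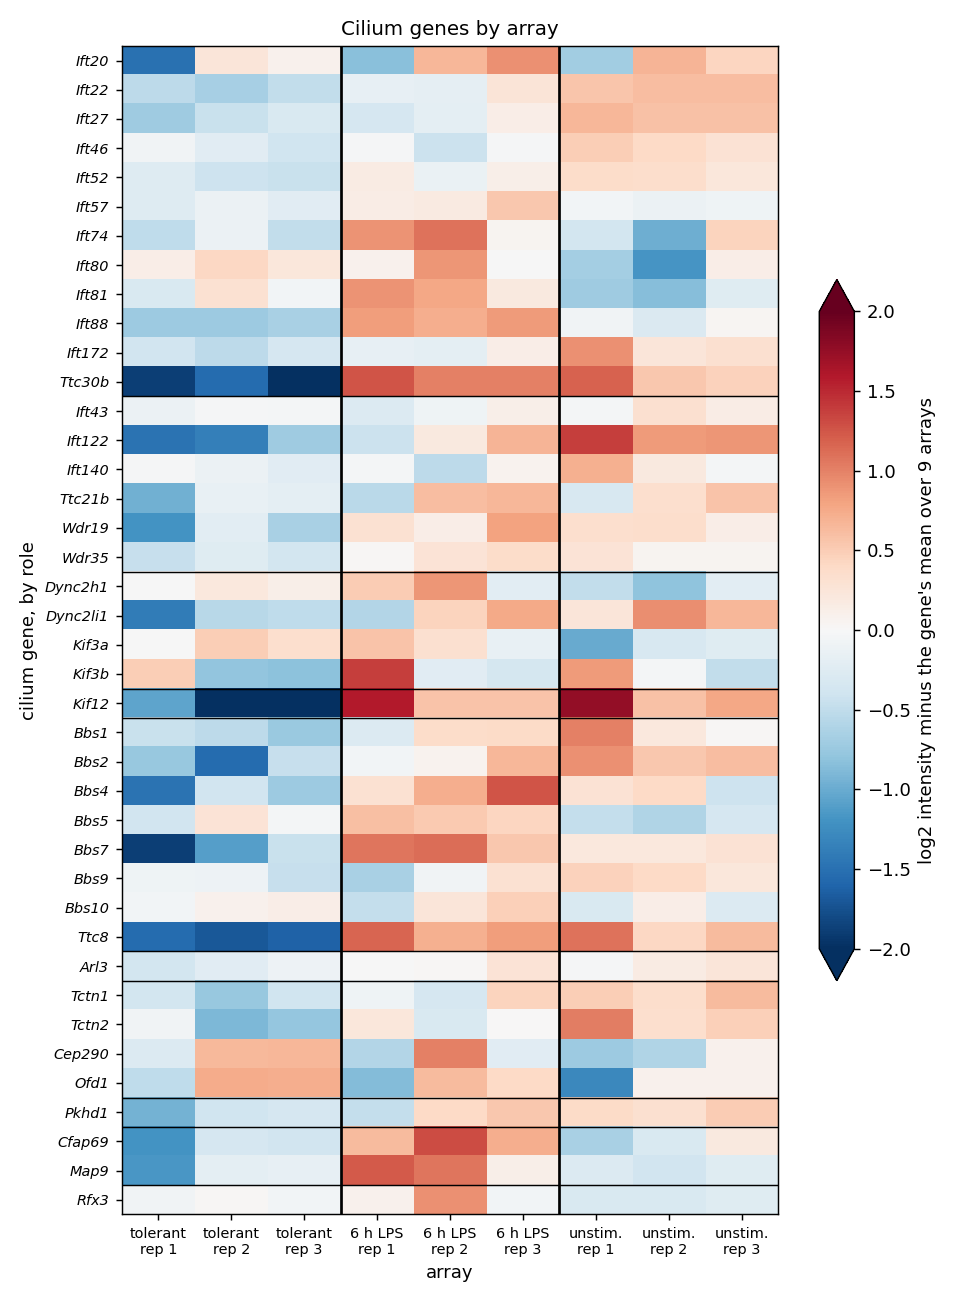
Log2 intensity of each of the 40 tested cilium genes (rows, grouped by role) on each array (columns), as the difference from the gene's own mean over 9 arrays. Blue cells gather in the 3 tolerant columns. The lowest condition mean was that of tolerant cells for 29 of 40 genes (72.5%, against 39.2% of all tested genes). Kif12, Ttc30b, Ttc8 and Ift122 show the widest spans.

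IFT-B, the complex that carries cargo outward, had the highest count among the roles on the list, and also the most tested genes. Of its 12 listed subunits, all tested, 7 fell in tolerant cells against unstimulated cells (58.3%, against 12.2% of all tested genes). None rose (14.0% of all tested genes). Subunits that are not on the list, such as Ttc26 (IFT56), are counted with the other transport genes below. Ttc30b, one form of the IFT70 subunit, read 3.31, 3.65 and 3.15 in tolerant cells, 6.44, 6.20 and 6.19 in 6 h LPS cells and 6.37, 5.73 and 5.64 in unstimulated cells. All 3 tolerant arrays were below the minimum and every other array was above it, so tolerant cells were at least 3.77-fold lower than unstimulated cells and at least 4.85-fold lower than 6 h LPS cells. Ttc30b's sister gene Ttc30a1 was not tested, reading 2.73, 2.52 and 2.54 in tolerant cells, 4.65, 3.95 and 3.79 in 6 h LPS cells and 4.85, 3.90 and 3.51 in unstimulated cells. Ttc30a1 thus lay below the minimum on every tolerant array and around it elsewhere, and Ttc30a2 did not reach the minimum; whether probes of these close copies share signal was not tested.

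Ift22, a Rab-like GTPase of IFT-B, read 7.32, 7.17 and 7.35 in tolerant cells, 7.67, 7.66 and 8.10 in 6 h LPS cells and 8.39, 8.45 and 8.45 in unstimulated cells. The 3 conditions of Ift22 do not overlap, and tolerant cells were lowest, with a difference from unstimulated cells of -1.15 (SE 0.16, adjusted p 0.00174). Ift27, a second GTPase of the complex that acts in BBSome exit from the cilium, read 8.51, 8.78 and 8.91 in tolerant cells, 8.89, 9.03 and 9.36 in 6 h LPS cells and 9.89, 9.80 and 9.81 in unstimulated cells. Its tolerant minus unstimulated difference was -1.10 (SE 0.18, adjusted p 0.00285), and the other probe sets of Ift27 gave -1.24 and -0.97. For Ift27 the unstimulated arrays stood above all others, while tolerant and 6 h LPS arrays overlapped.

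The remaining listed IFT-B subunits that fell against unstimulated cells did so by less than 2-fold. Ift172 differed by -0.90, Ift52 by -0.68, Ift46 by -0.62 and Ift88 by -0.59, with adjusted p of 0.0125, 0.0110, 0.0287 and 0.0179. Their arrays did not overlap between tolerant and unstimulated cells. Without tolerant replicate 2 the adjusted p of Ift172 became 0.0547, of Ift52 0.0509, of Ift46 0.0918 and of Ift88 0.0713. Ift46 also lost its call without tolerant replicate 3 (0.112) and without unstimulated replicates 1 (0.0808) or 2 (0.0875), and Ift88 without tolerant replicate 3 (0.0541) or unstimulated replicate 3 (0.0602).

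Ift88, the subunit whose partial loss gives the Oak Ridge polycystic kidney mouse, showed its wider difference against 6 h LPS cells. It read 3.49, 3.49 and 3.57 in tolerant cells, 5.05, 4.95 and 5.07 in 6 h LPS cells, and 4.14, 3.93 and 4.26 in unstimulated cells. The 3 conditions form separate tiers, with 6 h LPS on top and tolerant cells wholly below the minimum. The fold against 6 h LPS was at least 2.03 lower (adjusted p 0.000389), and against unstimulated cells at least 1.08 lower. The 5 listed IFT-B subunits that were not called against unstimulated cells were Ift20, Ift57, Ift74, Ift80 and Ift81, with differences from -0.52 to 0.83. Ift20 is also a Golgi protein, and its 3 tolerant arrays ran from 5.65 to 7.39, the lowest being replicate 1; with the replicate block its adjusted p was 0.0227 for a difference of -0.52.

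IFT-A, the return complex, had 3 of 6 tested subunits called lower against unstimulated cells (50%, against 12.2% of all tested genes). The same 3, Ift122, Wdr19 and Wdr35, were called lower against 6 h LPS cells (50%, against 6.02%). Ift122, a core subunit, read 5.64, 5.75 and 6.41 in tolerant cells, 6.69, 7.31 and 7.79 in 6 h LPS cells and 8.49, 7.96 and 7.99 in unstimulated cells. The tiers of Ift122 do not overlap, and tolerant cells were 4.64-fold below unstimulated cells (log2 difference -2.21, SE 0.32, adjusted p 0.00174) and 2.51-fold below 6 h LPS cells (adjusted p 0.0250). The second probe set of Ift122 gave -1.40 and -0.69 for these comparisons. The call against 6 h LPS ended without tolerant replicate 1 (adjusted p 0.0853) or 2 (0.0921) and without 6 h LPS replicate 2 (0.0712) or 3 (0.0716).

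Wdr19 (IFT144), a core subunit, differed by -0.96 from unstimulated cells (adjusted p 0.0292) and by -1.10 from 6 h LPS cells (0.0273). Wdr35 (IFT121), its partner in the same complex, differed by -0.49 (0.0498) and -0.58 (0.0416). Both genes sat close to the threshold. For Wdr19 the first call was lost without any 1 of tolerant replicates 1 (0.0747) and 3 (0.0791) or unstimulated replicates 1 (0.0766), 2 (0.0934) and 3 (0.0503), and the second without tolerant replicates 1 (0.0768) or 3 (0.0793) or 6 h LPS replicate 3 (0.0813). For Wdr35 the call against unstimulated cells held only without 6 h LPS replicates 1 or 3, the adjusted p otherwise reaching 0.136, and the call against 6 h LPS only without 6 h LPS replicate 1 or unstimulated replicate 1, otherwise reaching 0.127. Ift43, Ift140 and Ttc21b, the other subunits, were not called in either comparison, with differences from unstimulated cells of -0.21, -0.41 and -0.63. With the replicate block Ttc21b was called lower against both (adjusted p 0.00729 and 0.00793).

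Of the listed motor genes, 1 of 4 fell against unstimulated cells (25%, against 12.2% of all tested genes). Dync2li1, the light intermediate chain of the dynein-2 return motor, read 7.68, 8.51 and 8.56 in tolerant cells, 8.49, 9.52 and 9.83 in 6 h LPS cells and 9.32, 10 and 9.73 in unstimulated cells. Every tolerant array lay below every unstimulated array, by 2.70-fold on the means (log2 difference -1.43, SE 0.38, adjusted p 0.0233). That call ended without tolerant replicates 1 (0.0671) or 2 (0.0504) or unstimulated replicates 2 (0.0868) or 3 (0.0596). The difference of Dync2li1 from 6 h LPS cells, -1.03, was called only with the replicate block (adjusted p 0.00333, against 0.118 without).

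Dync2h1, the heavy chain of that same motor, differed the other way without a call, averaging 4.78 ± 0.11 in tolerant cells, 5.07 ± 0.56 in 6 h LPS cells and 4.17 ± 0.29 in unstimulated cells (SD, n = 3 each). The kinesin-2 motor subunits split: Kif3a differed from unstimulated cells by 0.79 (adjusted p 0.0584; 0.0302 with the replicate block) and Kif3b by -0.47 (0.576; 0.0380 with the block). Kif3a's other 3 probe sets at the minimum gave -0.30, 1.26 and 0.68, so they disagree in sign.

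Kif12, a kinesin of the kinesin-12 family reported as a modifier of cystic kidney disease in mice, had the widest difference among the tested cilium genes. It read 5.97, 4.28 and 5.0 in tolerant cells, 8.62, 7.6 and 7.6 in 6 h LPS cells and 8.78, 7.62 and 7.80 in unstimulated cells. Replicate 1 was the highest array in all 3 conditions, and the tolerant arrays lay below all others. On the means Kif12 in tolerant cells was 7.91-fold below unstimulated cells and 7.23-fold below 6 h LPS cells. Its second probe set averaged below the minimum, at 3.42 in tolerant, 3.77 in 6 h LPS and 3.67 in unstimulated cells. The probe sets read for Kif12, Ift122, Bbs4, Bbs10 and Ift81 carry the array maker's mark for probes shared between transcripts, and that of Ift27 the mark for possible cross-hybridisation.

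**Figure D2:**
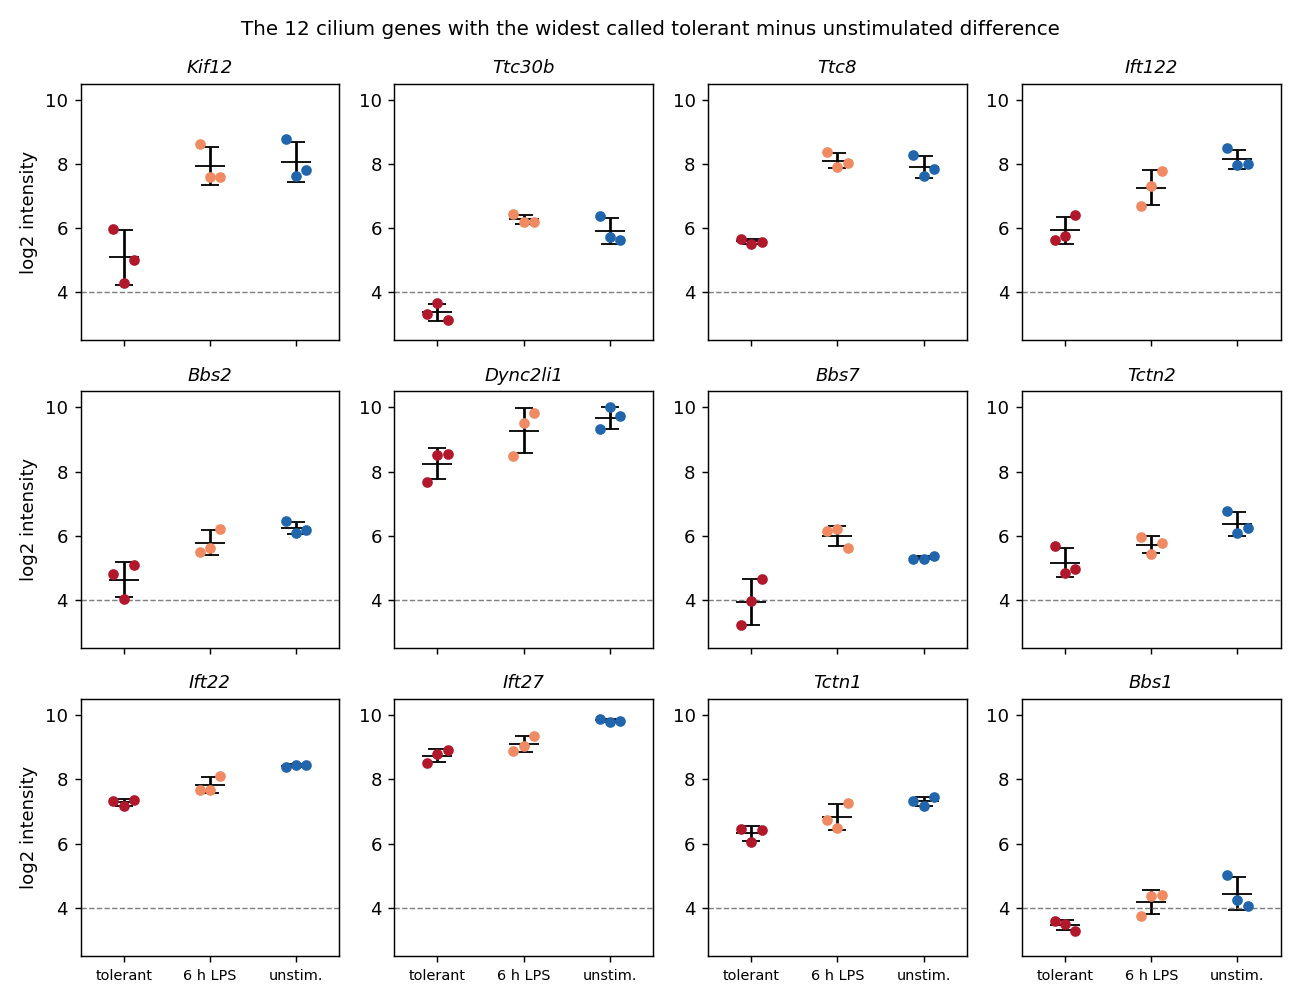
Log2 intensity of the 12 cilium genes with the widest called tolerant minus unstimulated difference, 1 panel a gene. Points are arrays (replicates 1 to 3 from left to right), bars are the mean ± SD of 3 arrays, and the dashed line is the minimum at log2 4; in every panel the tolerant points lie below the unstimulated points.

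The BBSome is the coat complex whose human genes underlie Bardet-Biedl syndrome. Of its 8 tested genes on the list, counting the chaperonin-like Bbs10, 4 were called lower in tolerant than in unstimulated cells (50%, against 12.2% of all tested genes). Ttc8 (BBS8) read 5.66, 5.51 and 5.58 in tolerant cells, 8.36, 7.91 and 8.03 in 6 h LPS cells and 8.29, 7.61 and 7.83 in unstimulated cells. The tolerant arrays lay close together and far below every other array. The fold was 5.02 below unstimulated cells (log2 difference -2.33, SE 0.21, adjusted p 0.000204) and 5.73 below 6 h LPS cells (-2.52, adjusted p 0.000176).

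Bbs2, a core BBSome subunit, read 4.8, 4.02 and 5.09 in tolerant cells, 5.5, 5.63 and 6.22 in 6 h LPS cells and 6.46, 6.09 and 6.17 in unstimulated cells. Tolerant arrays of Bbs2 lay below all others, 3.03-fold below unstimulated cells (adjusted p 0.00555) and 2.21-fold below 6 h LPS cells (0.0356). Bbs7, which pairs with Bbs2 in the complex, read 3.21, 3.98 and 4.64 in tolerant cells, 6.16, 6.20 and 5.62 in 6 h LPS cells and 5.29, 5.29 and 5.38 in unstimulated cells. For Bbs7 the tiers were tolerant lowest, unstimulated between and 6 h LPS highest, without overlap. The differences were -1.38 against unstimulated cells (adjusted p 0.0155; 0.0509 without tolerant replicate 2) and -2.05 against 6 h LPS cells (0.00449). The Bbs2 call against 6 h LPS was lost without any 1 of tolerant replicates 1 (0.0706) or 2 (0.102), 6 h LPS replicates 2 (0.0695) or 3 (0.105), and unstimulated replicates 2 (0.0597) or 3 (0.0565).

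Bbs1, the subunit that docks the BBSome to its GTPase, was low throughout, at 3.58, 3.49 and 3.28 in tolerant cells, 3.74, 4.38 and 4.40 in 6 h LPS cells and 5.03, 4.23 and 4.05 in unstimulated cells. All tolerant arrays were below the minimum, so tolerant cells were at least 1.35-fold lower than unstimulated cells (adjusted p 0.0335). The Bbs1 call was lost without any 1 of tolerant replicates 1 (0.0552), 2 (0.0885) or 3 (0.109) or unstimulated replicates 1 (0.0822) or 2 (0.0628). Bbs4, which links the BBSome to centriolar satellites, differed from 6 h LPS cells by -1.63 (3.09-fold lower, adjusted p 0.0175) and from unstimulated cells by -0.96 (0.0769; 0.0333 with the replicate block). The call of Bbs4 against 6 h LPS ended without tolerant replicates 1 (0.0540) or 3 (0.0501) or 6 h LPS replicate 3 (0.0563). Bbs5, Bbs9 and Bbs10 were not called, with differences from unstimulated cells of 0.42, -0.57 and 0.20.

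At the transition zone and basal body, the listed tectonics Tctn1 and Tctn2 fell. Another tectonic, Tctn3, is not on the list and was not called, averaging 4.94 in tolerant and 5.71 in unstimulated cells. Tctn2 read 5.68, 4.85 and 4.97 in tolerant cells, 5.97, 5.44 and 5.76 in 6 h LPS cells and 6.78, 6.08 and 6.23 in unstimulated cells. Tctn1 read 6.46, 6.06 and 6.42 in tolerant cells, 6.74, 6.49 and 7.27 in 6 h LPS cells and 7.32, 7.18 and 7.45 in unstimulated cells. On the means 6 h LPS cells lay between the other conditions for both, with some overlap of arrays. The tolerant minus unstimulated differences were -1.19 for Tctn2 (adjusted p 0.0137) and -1.0 for Tctn1 (0.0115). Without tolerant replicate 2 these became 0.0598 and 0.0535 in adjusted p, and Tctn2 also missed the threshold without tolerant replicate 3 (0.0552). Cep290, the linker of the transition zone, and Ofd1, a distal centriole protein, were not called, at 0.76 and 0.70 above unstimulated cells. With the replicate block Ofd1 was called higher (adjusted p 0.00232).

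Pkhd1 encodes fibrocystin, the ciliary membrane protein of recessive polycystic kidney disease. It read 9.56, 10.10 and 10.17 in tolerant cells, 10.03, 10.90 and 11.04 in 6 h LPS cells and 10.89, 10.82 and 11.01 in unstimulated cells. Tolerant arrays lay below unstimulated arrays and overlapped with 6 h LPS, with a difference from unstimulated cells of -0.97 (SE 0.28, adjusted p 0.0334). That call was lost when any 1 of the tolerant or unstimulated arrays was left out, at adjusted p of 0.0581 to 0.0939. Pkd1, polycystin-1, had a probe set above the minimum on 1 array only, reading 3.12, 3.02 and 3.03 in tolerant cells, 4.41, 3.02 and 3.03 in 6 h LPS cells and 3.95, 3.03 and 3.03 in unstimulated cells. In each condition its highest array was replicate 1. Just inside the minimum were Cep290 and Map9, each at log2 4 or above on 3 arrays, and just outside it were Pkd1 and Bbs12, whose highest arrays read 4.41 and 3.89. Arl3, the GTPase that releases lipidated cargo inside the cilium, averaged 9.87 ± 0.13 in tolerant cells, 10.21 ± 0.16 in 6 h LPS cells and 10.23 ± 0.13 in unstimulated cells (SD, n = 3 each) and was called in neither comparison, though with the replicate block it was lower than in unstimulated cells (adjusted p 0.0315).

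Rfx3 itself was not called in any comparison. It read 4.46, 4.56 and 4.47 in tolerant cells, 4.61, 5.45 and 4.47 in 6 h LPS cells and 4.23, 4.23 and 4.28 in unstimulated cells. The tolerant arrays were all above the unstimulated arrays by a small margin, with a difference of 0.25 (95% interval -0.30 to 0.80, adjusted p 0.491). The condition means of Rfx3, 4.25 to 4.84, lay close to the minimum. Its second probe set averaged 2.29 to 2.32, below the minimum. Among tested genes with a promoter window, the X-box-type pattern stood in 5 of 16 that fell in tolerant against unstimulated cells (31.2%), and in 3 of 19 that did not pass that test (15.8%). Against 6 h LPS cells the pattern stood in 3 of 10 that fell (30%) and in 5 of 25 that did not (20%). Whether these shares differ was not tested. Of the sequences printed above, Bbs7, Ift22 and Tctn2 belong to genes that fell against unstimulated cells, while Ift57 belongs to a gene not called (-0.12) and Map9 to one called only against 6 h LPS cells. The windows of Ttc8, Kif12, Ift88 and Bbs2 hold no match.

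Against 6 h LPS cells, tolerant cells again carried less of the cilium transcripts. Of the 40 tested genes 12 fell (30.0%, against 6.02% of all tested genes) and none rose (7.10% of all tested genes). None was higher at an unadjusted p below 0.05 either, beside 13.5% of all tested genes. The median difference was -0.58, against 0.01 over all tested genes, and 35 of 40 differences were below 0 (against 49.1%). Without Map9, which reached the minimum on 6 h LPS arrays only and so had to differ, 11 of 39 fell (28.2%), and without Kif12 and Ttc30b as well 9 of 37 (24.3%). With the replicate block 23 fell and none rose, beside 15.7% of all tested genes lower and 16.0% higher, and replicates 2 and 3 alone gave 16, beside 11.4%. The 11 genes that the block added were Ift20, Ift22, Ift52, Ift57, Ttc21b, Dync2li1, Kif3b, Bbs5, Tctn1, Tctn2 and Pkhd1, at adjusted p of 0.00333 (Dync2li1) to 0.0395 (Bbs5). The count of 12 dropped to 6 without tolerant replicate 1 (3.44% of all tested genes) and to 7 without 6 h LPS replicate 3 (4.15%). Both comparisons of tolerant cells use the same tolerant arrays, so their calls are not independent. The share of all tested genes called in both was not computed, so the counts that follow describe the list only. Called lower in both were 9 cilium genes (Bbs2, Bbs7, Ift122, Ift88, Kif12, Ttc30b, Ttc8, Wdr19 and Wdr35). Another 10 were called against unstimulated cells alone and 3 against 6 h LPS cells alone.

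Those 3 were Bbs4, Cfap69 and Map9. The gap between their 2 comparisons is the 6 h LPS minus unstimulated difference, which was not called for Bbs4, Cfap69 or Map9 (adjusted p 0.29, 0.117 and 0.129), though with the replicate block it was for Cfap69 (0.0319) and Map9 (0.0491). Cfap69, an axonemal protein of motile flagella, averaged 6.62 ± 0.48 in tolerant cells, 8.15 ± 0.36 in 6 h LPS cells and 7.01 ± 0.43 in unstimulated cells (SD, n = 3 each). It was 2.89-fold lower in tolerant than in 6 h LPS cells (log2 difference -1.53, SE 0.31, adjusted p 0.0133), and a second probe set gave -1.45. Map9, a spindle and microtubule protein, entered the test only through its 6 h LPS arrays, so it had to differ; it was at least 1.87-fold lower in tolerant than in 6 h LPS cells. The tolerant minus 6 h LPS call of Map9 was lost without any single array but 6 h LPS replicate 3, at adjusted p of up to 0.113.

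**Figure D3:**
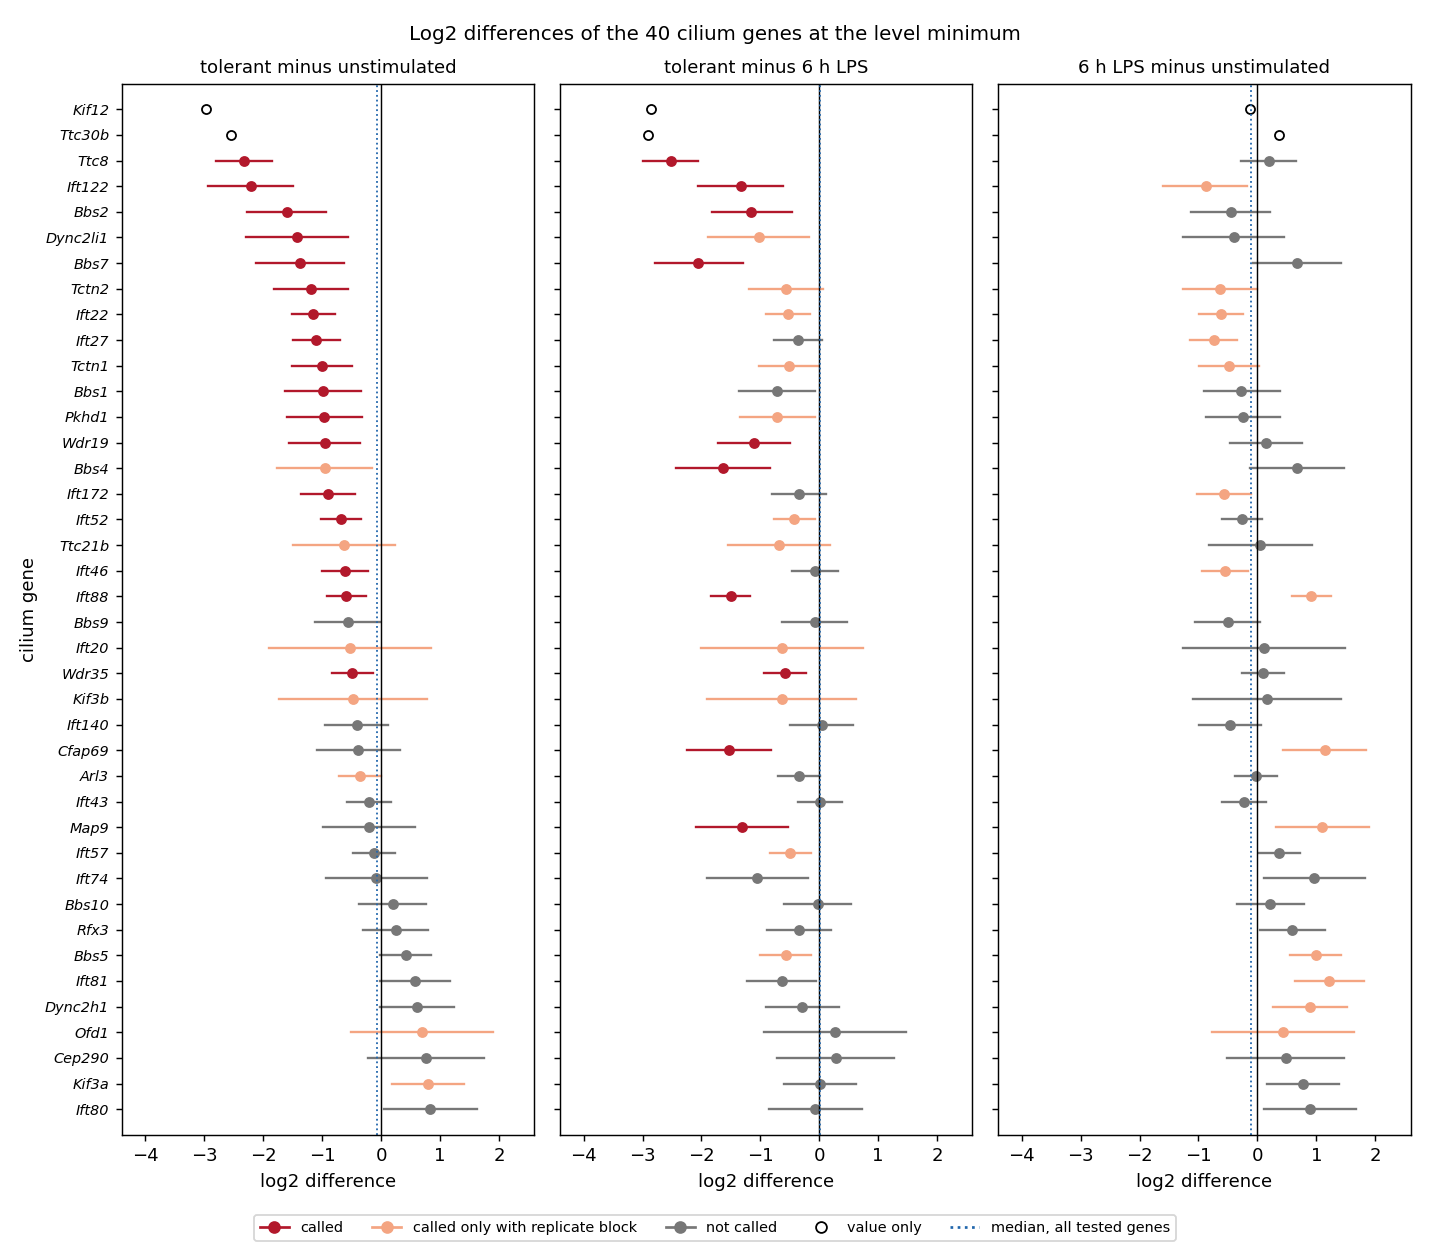
Log2 differences of the 40 tested cilium genes in the 3 comparisons, with 95% intervals from limma over 9 arrays, sorted by the tolerant minus unstimulated difference. Red marks genes called at an adjusted p below 0.05, orange those called only with the replicate block, and open circles Kif12 and Ttc30b, shown as values only; the dotted line is the median of all 9431 tested genes (-0.07, 0.01 and -0.11).

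At 6 h of LPS no cilium gene was called against unstimulated cells in either direction, beside 0% of all tested genes lower and 0.0636% higher. At an unadjusted p below 0.05, 6 of the 40 cilium genes were lower and 11 higher, beside 10% of all tested genes lower and 12.9% higher. The differences ran both ways, from -0.88 for Ift122 to 1.22 for Ift81, with a median of 0.13 against -0.11 over all tested genes. With the replicate block 7 were called lower (Ift122, Ift27, Tctn2, Ift22, Ift172, Ift46 and Tctn1) and 7 higher (Ift81, Cfap69, Map9, Bbs5, Ift88, Dync2h1 and Ofd1), beside 12.5% of all tested genes lower and 11.6% higher. Replicates 2 and 3 alone gave 0 in both directions, beside 0.0848% of all tested genes higher. Leaving out 6 h LPS replicate 3 gave 2 lower (2.05% of all tested genes) and 5 higher (5.33%).

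Many cilium genes had their highest level at 6 h. The highest of the 3 condition means was that of 6 h LPS cells for 20 of 40 genes (50%, against 21.5% of all tested genes), that of unstimulated cells for 17 (42.5%, against 43.2%) and that of tolerant cells for 3 (7.50%, against 35.3%). Ift81, an IFT-B subunit that binds tubulin with Ift74, averaged 5.99 ± 0.31 in tolerant cells, 6.63 ± 0.38 in 6 h LPS cells and 5.41 ± 0.32 in unstimulated cells (SD, n = 3 each). Bbs5, a lipid-binding BBSome subunit, averaged 5.98 ± 0.33 in tolerant cells, 6.55 ± 0.08 in 6 h LPS cells and 5.56 ± 0.14 in unstimulated cells. Both were lowest in unstimulated cells. Their 6 h LPS minus unstimulated differences were 1.22 for Ift81 (adjusted p 0.115; 0.0319 with the block) and 0.99 for Bbs5 (0.115; 0.0319 with the block).

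Another 129 genes of the cilium are not on the list of 48. Of the 80 that reached the minimum, 14 fell (17.5%) and 10 rose (12.5%) in tolerant against unstimulated cells, beside 12.2% and 14.0% of all tested genes, with a median of -0.19. Without unstimulated replicate 2 the 14 became 7, beside 7.49% of all tested genes, and without tolerant replicate 2 they became 8, beside 6.87%; with the replicate block they became 28, beside 25.9%, and with replicates 2 and 3 alone 23, beside 19.7%. Against 6 h LPS cells 11 fell (13.8%, against 6.02% of all tested genes) and 4 rose (5.0%, against 7.10%). The 11 became 7 without tolerant replicate 1 (beside 3.44% of all tested genes) or without 6 h LPS replicate 2 (4.10%), 6 without tolerant replicate 2 (3.15%), and 18 with the block (15.7%).

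**Figure D4:**
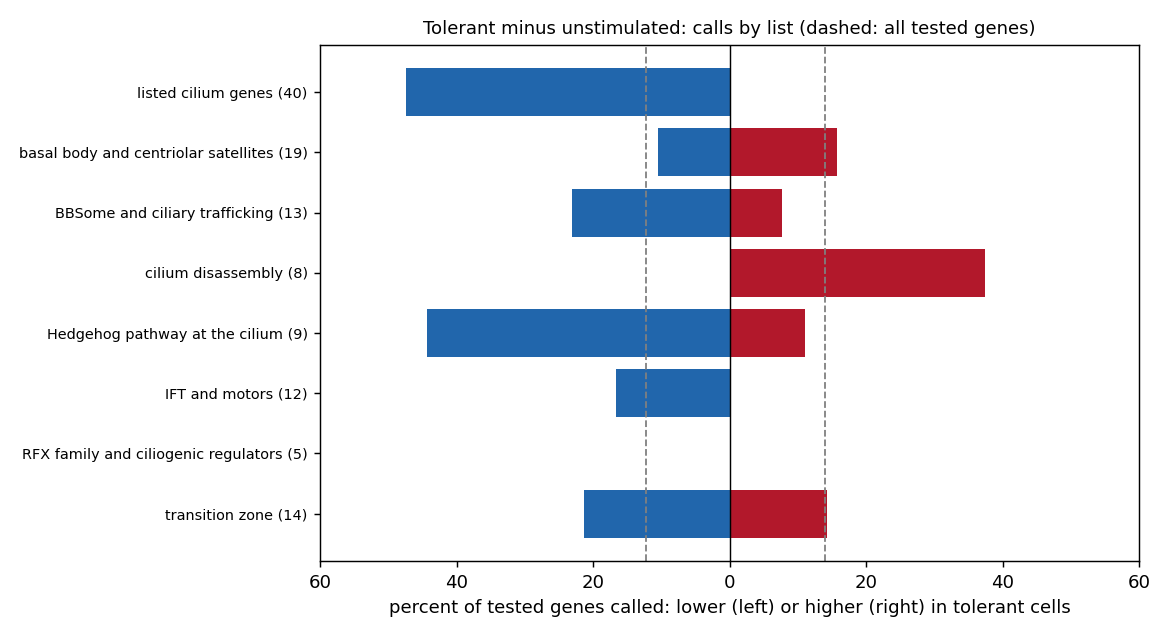
Percent of tested genes called lower (blue, left) or higher (red, right) in tolerant than in unstimulated cells, for the listed cilium genes and 7 lists of other cilium genes, with the number tested in brackets. Dashed lines mark all tested genes, 12.2% lower and 14.0% higher; the listed genes reach 47.5% lower, and the disassembly list has calls on the higher side only.

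The Hedgehog list, whose pathway in vertebrates runs through the cilium, had 4 of 9 tested genes lower (44.4%) and 1 higher (11.1%) against unstimulated cells; here and for the lists that follow, 12.2% of all tested genes were lower and 14.0% higher. Evc and Evc2, partners at the ciliary base that relay Smoothened activity, differed by -1.96 (adjusted p 0.0103) and -1.22 (0.0345), and Sufu and Gli3 by -1.03 and -0.95; the Sufu call ended with the median probe set (adjusted p 0.0536). Gpr161, a ciliary receptor that holds Hedgehog output down, rose by 1.36 (adjusted p 0.00228; by 0.68 for the mean over its probe sets). Smo differed by -0.79 without a call (adjusted p 0.141; 0.00482 with the block), and Gli1, a Hedgehog target, read 2.21 to 2.24 on the 9 arrays, below the minimum.

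Trafficking genes had 3 of 13 lower (23.1%) and 1 higher (7.69%). Rabl2, a GTPase that binds IFT-B, differed by -1.55, the Arl2-binding Arl2bp by -1.32 and the BBSome subunit Bbip1 by -0.60, a direction that turned with its other probe sets (0.12 for the mean over probe sets). Lztfl1, a regulator of BBSome entry, rose 4.0-fold (log2 difference 2.0, adjusted p 0.00706), reading 7.71, 8.40 and 8.16 in tolerant cells, 6.67, 7.90 and 6.90 in 6 h LPS cells and 5.69, 5.78 and 6.81 in unstimulated cells. The size of the Lztfl1 difference depended on the probe set, at 0.85 for the mean over its probe sets (adjusted p 0.0433) and 0.73 without a call for the median one (0.254). Its direction was thus opposite to that of Bbs2, Bbs7 and Ttc8.

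Among other transport genes 2 of 12 fell, a share (16.7%) near that of all tested genes: Ttc26 (IFT56, -1.14) and Kifap3, the kinesin-2 adaptor (-0.96). In the transition zone list B9d1, Invs and B9d2 fell (-1.72, -1.19 and -0.72) and Rpgrip1 and Iqcb1 rose (0.67 and 0.61), of 14 tested (21.4% lower and 14.3% higher). In the basal body list, Nin and C2cd3 fell (-0.80 and -0.76) and Ccp110, Cep83 and 2700049A03Rik rose (1.24, 1.11 and 0.60), of 19 tested (10.5% lower and 15.8% higher, near the shares of all tested genes). With the mean over probe sets the calls of Rpgrip1, Cep83 and C2cd3 ended (adjusted p 0.342, 0.0850 and 0.0550), and with the median probe set those of Rpgrip1 and Cep83 (0.0507 each). Ccp110 caps the mother centriole and keeps cilia from growing. No gene was called among the 5 tested of the RFX family and ciliogenic regulators. At an unadjusted p below 0.05, 1 of them was lower, beside 19.3% of all tested genes. Foxj1, the regulator of motile cilia, differed by -1.34 (adjusted p 0.0746, and 0.00250 with the block).

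Genes of cilium disassembly, several of which also serve mitosis, had 3 of 8 higher (37.5%) and none lower in tolerant than in unstimulated cells. Aurka, the kinase that sets off disassembly, read 9.91, 9.57 and 9.36 in tolerant cells, 7.93, 7.79 and 8.34 in 6 h LPS cells and 8.81, 8.74 and 8.72 in unstimulated cells. The tolerant arrays were the highest, by 0.86 over unstimulated cells (adjusted p 0.0138) and 1.60 over 6 h LPS cells (0.00141). Nek2 and Kif2a rose by 0.91 and 1.10 against unstimulated cells; Nek2 differed by 0.44 for the mean over its probe sets (adjusted p 0.0191) and lost its call with the median one (0.0703). Of the 24 calls of other cilium genes against unstimulated cells, 11 held whichever array was left out (Arl2bp, B9d1, Evc, Gli3, Gpr161, Invs, Kif2a, Kifap3, Lztfl1, Nek2 and Rabl2). The others were all lost without unstimulated replicate 2, some also without further arrays, at adjusted p of up to 0.146 (Rpgrip1).

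Many markers of proliferation were higher in tolerant cells. Of 12 tested, 7 rose in tolerant cells against unstimulated cells (58.3%, against 14.0% of all tested genes), 7 rose against 6 h LPS cells (58.3%, against 7.10%), and none fell. Between 6 h LPS and unstimulated cells 0 of the 12 were called, beside 0% of all tested genes lower and 0.0636% higher. In that comparison 5 differences were above 0 and 7 below. Mki67 was 4.62-fold and Top2a 3.74-fold above unstimulated cells. The summed linear intensity of the 12 ran from 21100 to 24400 in tolerant cells, 17100 to 20100 in 6 h LPS cells and 16400 to 20100 in unstimulated cells, with every marker at the minimum. Their part in the fall of the cilium genes was not tested. Among epithelial markers Epcam reached the minimum on tolerant arrays only, so it had to differ, reading 5.31, 6.07 and 5.53 in tolerant cells and 2.92 to 3.24 on the other arrays. Of the other 4 tested, Cldn4 and Krt18 rose in tolerant against unstimulated cells, and the summed intensity of the list of 11 was 15400 to 21900 in tolerant cells, 10800 to 17100 in 6 h LPS cells and 12900 to 18000 in unstimulated cells, whose part was likewise not tested. Of the leukocyte markers Cd68 rose 17.8-fold and Csf1r fell 3.85-fold against unstimulated cells, while the summed intensity of the 7 ran from 1130 to 1460 in tolerant cells, 726 to 2090 in 6 h LPS cells and 1170 to 2440 in unstimulated cells; their part was not tested.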

How the data were processed

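RNA of 9 cell cultures was read on Affymetrix mouse arrays of 45101 probe sets. The authors deposited a linear intensity for each probe set; the submitters' processing notes name GCRMA, with no version. That method models background from probe sequence and normalizes between arrays, so dim probe sets crowd at low values. Log2 of the intensity was taken in R 4.3.3 with no pseudocount. Depth has no counterpart on arrays; 3 arrays a condition limit the precision. Probe sets with 1 gene symbol (34945) gave 18193 genes, the brightest probe set standing for each; 9431 of these (51.8%) reached log2 4 on 3 arrays or more and were tested. limma 3.58.1 fitted a mean per condition to all 9 arrays (6 residual degrees of freedom) with eBayes without trend, two-sided tests and Benjamini-Hochberg adjustment within each of 3 comparisons, checked on simulated data. Where all 3 arrays of the lower group were below log2 4, the fold is a bound against log2 4.

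The members and lists were chosen with earlier results of these data known. The probe set read for each gene and the minimum came from all 9 arrays without regard to condition. That does not make the choice of members independent of the conditions, so the shares called describe the list. Kif12 and Ttc30b were known to fall and get no p. Array values are given for the 12 called genes with the widest tolerant minus unstimulated difference and for Rfx3, Pkd1 and Pkhd1; Ift88, Lztfl1, Aurka and Ttc30a1 were added, and of other lists at most 5 called genes a list are named. Arrays with the same replicate number deviated together from their condition means (correlations of 0.157 to 0.844), so the replicate number was also fitted as a block; the labels do not say what the numbers share. Alternatives covered the minimum, the choice of probe set, normalization, eBayes settings, a minimum fold and each array left out. Slide and scan data were not used here. One listed name, Talpid3, was matched through a synonym.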

Additional observations from a re-analysis of the deposited data

How the results depend on the processing

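Leaving aside Kif12 and Ttc30b, 27 single-gene calls of tolerant cells were recomputed under up to 24 alternatives each (642 values); 527 kept the call, 115 lost it and 0 changed direction. For 9 the call held under every alternative: Bbs2, Ift122, Ift22, Ift27 and Ttc8 against unstimulated cells and Bbs7, Cfap69, Ift88 and Ttc8 against 6 h LPS cells. Wdr35 (lost under 14 and 13) and Map9 (13) were the least stable. Of 24 calls of other cilium genes against unstimulated cells (573 values), 9 held throughout and 93 values lost the call; Bbip1 changed direction with the mean (0.12) or the median (0.42) of its probe sets. With no minimum the calls of Wdr19, Dync2li1, Bbs1, Bbs7 and Pkhd1 against unstimulated cells ended (adjusted p 0.0555 to 0.0924), as did those of Ift122, Wdr19, Bbs2, Bbs4 and Map9 against 6 h LPS cells (0.0627 to 0.117). Values below the minimum limit Ift88, whose call against unstimulated cells ended with values below log2 4 set to log2 4 (adjusted p 0.518), and Bbs1 (0.242). Why counts moved was not tested, except that a minimum fold makes calls rarer by construction. Fewer arrays moved counts both ways. Against unstimulated cells, 8 cilium genes fell without tolerant replicate 2 and 20 without 6 h LPS replicate 1, beside 19 as reported.

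A minimum of 1.2-fold (limma's treat) gave 12 cilium genes lower in tolerant than in unstimulated cells (6.92% of all tested genes), 7 lower than in 6 h LPS cells (2.94%), and 8 and 6 of the other cilium genes in these comparisons (14 and 11 as reported). Fitting the compared conditions alone gave 7 lower than in 6 h LPS cells (4.0%) and 1 higher than in unstimulated cells (15.4%). With no minimum, 1 of 44 genes was higher in 6 h LPS than in unstimulated cells (0.143%), and the other cilium genes gave 8 and 6 lower in tolerant cells (4.93% and 2.62%); the mean of all probe sets gave 1 of 36 higher at 6 h (0.146%). The replicate block gave 24 lower (25.9%) and 2 higher (22.7%) against unstimulated cells, 23 lower against 6 h LPS cells (15.7%), 7 lower (12.5%) and 7 higher (11.6%) at 6 h against unstimulated cells, and 28 and 18 other cilium genes lower; other single calls it changed stand beside those genes. A block of replicate 1 against the others, added after seeing the data, gave 24 lower (27.4%) and 2 higher (23.6%) against unstimulated cells, 22 lower against 6 h LPS cells (16.9%), 6 lower (15.7%) and 8 higher (13.4%) at 6 h against unstimulated cells, and 29 and 18 other cilium genes lower. Replicates 2 and 3 alone gave 3 higher in tolerant than in unstimulated cells (18.5%) and 23 other cilium genes lower (19.7%). Percentages are of all genes tested under the same setting.

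Each array was also left out in turn, and percentages here are of all tested genes in the same fits. In tolerant against unstimulated cells, 8 (6.87%) to 20 (15.2%) cilium genes were lower and 0 to 1 higher (7.97% to 15.6%). Against 6 h LPS cells, 6 (3.44%) to 13 (6.28%) were lower and 0 higher (4.03% to 7.23%). At 6 h against unstimulated cells the counts ran from 0 to 2 lower (2.05% at 2) and 0 to 5 higher (5.33% at 5). Other cilium genes ran from 7 (7.49%) to 17 (15.2%) lower against unstimulated cells. Against 6 h LPS cells they ran from 6 (3.15%) to 10 (5.23% to 6.36%).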
